A study of Mus musculus with 4 samples.

Results

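The Cyp, Ugt, Gst, Aldh, Sult and Fmo genes, 6 enzyme families of drug and toxin metabolism, were followed through the cell classes of the mouse small intestine and lung and through clusters of attached cells from the same tissues. Members were chosen by symbol (Cyp or Fmo, Aldh or Sult followed by a digit, Ugt1 or Ugt2, and the Gst classes a, k, m, o, p and t) and by level. A gene entered with at least 50 unique molecular identifiers (UMIs, counted transcript molecules) summed over the single cells of either tissue. This left 94 members of 22005 genes in the tables, out of 132 genes with such a symbol. They were 35 Cyp, 19 Gst, 19 Aldh, 8 Ugt, 8 Sult and 5 Fmo genes. In the small intestine 77 members reached the limit and in the lung 70, with 53 reaching it in both tissues, 24 in the small intestine alone and 17 in the lung alone. The singlet sums chose the members, so the level of a member in the singlets is given as a description. In the small intestine, Cyp4f15 (41 UMIs in multiplets, 54 in singlets) and Cyp2d22 (92 and 66) lay just inside the limit, and Cyp17a1 (27 and 40) and Cyp2c29 (86 and 35) just outside. In the lung, Aldh1l2 (28 UMIs in multiplets, 51 in singlets) and Cyp2ab1 (199 and 51) lay just inside, and Cyp2c23 (39 and 43) and Cyp1a1 (230 and 41) just outside.

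The study took apart tissues of C57BL/6J mice, an inbred laboratory strain, and sequenced 4 droplet libraries, prepared by the Chromium Single Cell 3′ v3 chemistry, which counts molecules near the 3′ end. They were multiplets, clusters of at least 2 attached cells, and singlets, single cells, of the small intestinal epithelium, and multiplets and singlets of whole lung. Its stated design was to read from a multiplet's RNA which cell types it holds. The labels name no separate animals, and each group was 1 library, so no test between groups was possible and the intervals given cover counting error only.

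Enzymes of phase I (cytochromes P450, flavin-containing monooxygenases and aldehyde dehydrogenases) oxidise foreign and endogenous compounds, and enzymes of phase II (UDP-glucuronosyltransferases, glutathione S-transferases and sulfotransferases) attach a polar group so that the product can be excreted. In the gut the absorptive enterocyte is an early barrier to swallowed compounds, and in the airways the club cell, called Clara cell in the authors' annotation, is known for its P450 content. Several members have other main substrates: Cyp51 makes sterols, and Aldh1a1, Aldh1a2, Aldh1a3 and Cyp26b1 make or degrade retinoic acid.

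Many of the genes sit side by side in the genome. In GENCODE M21 (GRCm38), 55 of the 94 members lay in 18 clusters of at least 2 members, with gaps of up to 300 kb. Promoters of 79 member genes were found in RefSeq (96 promoters, each 250 bases before to 50 after the start). The letters CAAAGTCCA, bound by the gut and liver factors HNF4A and HNF4G, were searched on both strands. They occurred in 4 of the 96 member promoters (4.17%), against 0.475% of all 32851 promoters. All 4 genes had their highest level in enterocytes, among 47 such genes with 59 promoters, and they are shown because they belong to the group of genes that the small intestinal results turn on. They are the P450 genes Cyp2c65 (chr19:39060756-39061055, plus strand, letters starting at position -116 from the start), Cyp2c68 (chr19:39741052-39741351, minus strand, -77) and Cyp3a11 (chr5:145879805-145880104, minus strand, -109), and the sulfotransferase gene Sult1b1 (chr5:87536173-87536472, minus strand, 25), all on GRCm38.p6. Capitals mark the 9 letters or their reverse complement.
Cyp2c65: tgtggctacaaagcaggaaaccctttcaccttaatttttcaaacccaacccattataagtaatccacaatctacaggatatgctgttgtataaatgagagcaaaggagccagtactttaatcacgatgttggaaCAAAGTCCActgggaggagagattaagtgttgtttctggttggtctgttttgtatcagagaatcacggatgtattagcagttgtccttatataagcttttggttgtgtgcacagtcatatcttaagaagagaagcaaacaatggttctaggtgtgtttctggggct
Cyp2c68: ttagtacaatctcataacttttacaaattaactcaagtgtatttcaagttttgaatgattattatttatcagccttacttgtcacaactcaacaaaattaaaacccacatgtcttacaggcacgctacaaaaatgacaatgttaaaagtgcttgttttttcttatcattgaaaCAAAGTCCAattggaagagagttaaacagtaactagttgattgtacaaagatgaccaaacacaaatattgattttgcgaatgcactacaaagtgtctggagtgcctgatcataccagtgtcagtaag
Cyp3a11: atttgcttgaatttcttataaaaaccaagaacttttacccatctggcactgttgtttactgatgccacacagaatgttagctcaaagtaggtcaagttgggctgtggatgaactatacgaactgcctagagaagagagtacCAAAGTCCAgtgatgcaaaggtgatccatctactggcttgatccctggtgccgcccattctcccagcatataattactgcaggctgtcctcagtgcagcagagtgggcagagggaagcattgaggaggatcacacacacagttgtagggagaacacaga
Sult1b1: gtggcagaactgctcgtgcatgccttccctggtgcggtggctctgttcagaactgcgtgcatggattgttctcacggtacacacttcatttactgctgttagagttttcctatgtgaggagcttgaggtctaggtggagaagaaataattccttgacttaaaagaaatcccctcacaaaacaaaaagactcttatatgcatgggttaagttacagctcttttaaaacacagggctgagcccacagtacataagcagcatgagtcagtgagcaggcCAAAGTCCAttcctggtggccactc
The core of the aryl hydrocarbon receptor site, GCGTG, was in 28.1% of member promoters and 32.4% of all promoters. The antioxidant response core, TGACNNNGC, was in 10.4% and 12.4%. A match is a run of letters and says nothing of binding.

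Libraries held 50645279 UMIs in small intestinal multiplets, 47764845 in small intestinal singlets, 66277622 in lung multiplets and 56639425 in lung singlets, with medians of 12603, 8759, 11934 and 7896 UMIs per barcode. Between 2 and 15 barcode sequences recurred in each pair of libraries. Singlets carried the authors' cell classes, which rest on the same cells, so a class against the others is a description. Each of 7 small intestinal marker lists was highest in the class of its name, such as the enterocyte list at 73661 CPM (UMIs of a gene per 1000000 UMIs of the class or library) in enterocytes and 8333 CPM in late-1 progenitors, the next class. In the lung the club cell list was highest in Clara cells (538440 CPM, against 9158 CPM in ciliated cells). The macrophage class also had the highest neutrophil markers (3279 CPM) and the B cell class the highest dendritic markers (956 CPM). The type I pneumocyte and mesothelial classes held 6 and 10 barcodes, and no class with fewer than 20 barcodes entered a ranking. Levels are compared between classes and libraries, not between genes.

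In the small intestine most of the families were highest in mature enterocytes. Of the 77 members, 49 had their highest CPM in the enterocyte class (63.6%), where 11.6% of all 11556 genes tested did. By family these were 17 of 27 Cyp, 13 of 18 Gst, 7 of 8 Ugt, 6 of 14 Aldh, 4 of 6 Sult and 2 of 4 Fmo genes. Summed over all members, 191 enterocytes had 13732 CPM (13570 to 13895), against 5930 CPM in late-1 progenitors and 2526 CPM in stem cells. Paneth cells, in which 6 secretory markers took 449220 CPM, had the lowest sum, 574 CPM. Of the other members, 7 were highest in stem cells (against 11.5% of all genes), 6 in tuft cells (22%), 5 in late-2 progenitors (6.48%), 4 in enteroendocrine cells (21.5%), 3 in late-1 progenitors (3.07%), 2 in early progenitors (4.61%) and 1 in goblet cells (6.91%). No member was highest in Paneth or transit amplifying cells, where 0.675% and 11.7% of all genes were. A class led by at least 3-fold over the next for 26 of 77 members (33.8%), against 8.43% of all genes, and for 19 of these it was the enterocyte.

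**Figure D1:**
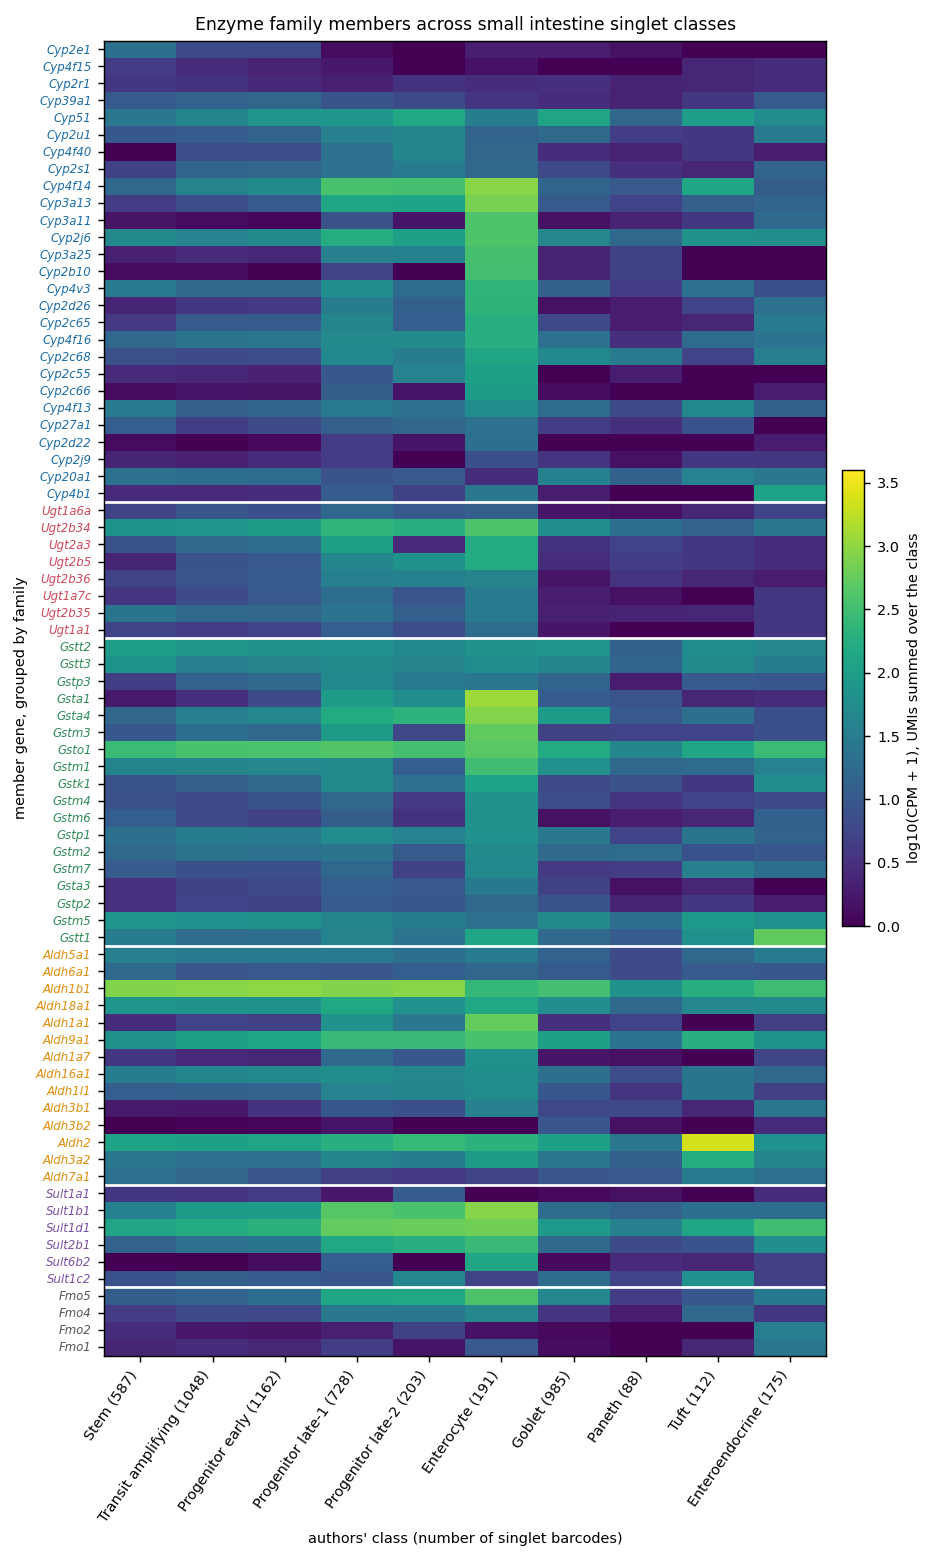
Level of the 77 members that reached 50 UMIs in small intestinal singlets. Rows are genes grouped by family, columns are the authors' cell classes with their numbers of barcodes, and colour is log10(CPM + 1); the enterocyte column is the brightest for 49 of the 77 genes.

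Among phase I enzymes, the P450s of the Cyp2b, Cyp2c and Cyp3a subfamilies, which oxidise many drugs and steroids, included the largest steps into enterocytes. Cyp2b10, a P450 known in liver as a target of the receptor CAR (chr7:25897620-25926624), had 335 CPM in enterocytes (310.5 to 362), 4.52 CPM in late-1 progenitors, the next class, and 0 UMIs in early and late-2 progenitors. That was a 74.2-fold step (51.5 to 111). Cyp3a11 (chr5:145854426-145879964), a main bile acid and drug hydroxylase of mouse liver and gut, had 411 CPM in enterocytes and 16.0 CPM in enteroendocrine cells, the next class. Its neighbour Cyp3a25 had 351 CPM in enterocytes and 36.7 CPM in late-2 progenitors. The third Cyp3a gene, Cyp3a13, lies apart on the same chromosome (chr5:137892932-137921619) and was less restricted, at 747 CPM in enterocytes and 129 CPM in late-1 progenitors.

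All 4 Cyp2c members were highest in enterocytes, by steps of different size. Cyp2c66 (91.3 CPM in enterocytes, 10.7 CPM in late-1 progenitors) and Cyp2c65 (181 and 41.9 CPM) led in enterocytes by over 3-fold. Cyp2c55 had 112 CPM in enterocytes and 39.1 CPM in late-2 progenitors, and Cyp2c68 had 135 CPM in enterocytes and 47.0 CPM in goblet cells, both short of that limit. Of the 3′ end of Cyp2c68, 44.3% of 60-base words also occur in Cyp2c40 or Cyp2c67, so its counts are uncertain. The fatty acid hydroxylase Cyp4f14 had 915 CPM in enterocytes (873 to 958) and 371 CPM in late-1 progenitors, and Cyp2j6, an arachidonic acid epoxygenase, 410.2 and 166 CPM. Both were already high in the late progenitors.

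A few P450s followed other cells. Cyp2e1, which oxidises ethanol and small solvents, had 20.1 CPM in stem cells (15.7 to 25.3), 5.78 CPM in transit amplifying cells and 2 UMIs in all enterocytes. Cyp4b1 was highest in enteroendocrine cells, at 122 CPM (102 to 145), against 26.0 CPM in enterocytes. Cyp51, the sterol demethylase, was spread over late-2 progenitors (139 CPM), goblet cells (128 CPM) and tuft cells (105 CPM), whose intervals overlap. Among flavin monooxygenases, Fmo5 (389 CPM, against 143 CPM in late-2 progenitors) and Fmo4 (44.9 CPM, against 27.1 CPM) were highest in enterocytes. Fmo1 (24.5 CPM) and Fmo2 (33.9 CPM) were highest in enteroendocrine cells, with 8.98 and 0.499 CPM in enterocytes.

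Aldehyde dehydrogenases divided into 3 patterns. Aldh1a1, a retinaldehyde dehydrogenase (chr19:20492715-20643465), had 569 CPM in enterocytes (537 to 603) and 68.4 CPM in late-1 progenitors. Aldh1b1, a mitochondrial enzyme for acetaldehyde and retinaldehyde (chr4:45799022-45804604), ran the other way. It had 815 CPM in stem cells, 905 CPM in transit amplifying cells, 976 CPM in early progenitors, 815 and 902 CPM in late-1 and late-2 progenitors and 245 CPM in enterocytes (224 to 268). Aldh2, the main mitochondrial acetaldehyde dehydrogenase (chr5:121566027-121593824), was highest in tuft cells, the chemosensory cells of the epithelium. Its 2274 CPM in 112 tuft cells (2164 to 2388) stood 8.74-fold (7.85 to 9.74) above the 260.3 CPM of late-2 progenitors. Aldh3a2 and Aldh7a1 were also highest in tuft cells, Aldh9a1 in enterocytes (372 CPM, against 275 CPM in late-2 progenitors), and Aldh18a1, a proline synthesis enzyme, at 145 CPM in late-1 progenitors and 143 CPM in enterocytes, which do not differ beyond counting error.

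Among phase II enzymes, glutathione S-transferases of the alpha and mu classes were enterocyte genes. Gsta1 (chr9:78230656-78242684) had 1164 CPM in enterocytes (1117 to 1212), 94.3 CPM in late-1 progenitors and 3 UMIs in all stem cells. Its 3′ end shares 83.9% of its 60-base words with Gsta2 and predicted genes beside it, so its counts are uncertain. Gsta4, which conjugates lipid peroxidation products, had 842 CPM in enterocytes and 212 CPM in late-2 progenitors, and Gstm3 521 CPM in enterocytes and 89.9 CPM in late-1 progenitors. Of the 7 Gstm genes in 1 cluster on chromosome 3 (chr3:107895821-108044894), 6 were highest in enterocytes. The exception was Gstm5, at 85.0 CPM in tuft cells and 76.4 CPM in stem cells, whose intervals overlap, and 21.5 CPM in enterocytes. Of the 3′ end words of Gstm1 and Gstm6, 22.0% and 11.2% also occur in Gstm3 or in pseudogenes or predicted genes, so these are not fully separate cases. Gstt1 was an enteroendocrine gene, with 532 CPM there (489 to 578) and 133 CPM in enterocytes. Gsto1 differed less between enterocytes (470.1 CPM) and stem cells (281 CPM), a ratio of 1.67 (1.53 to 1.83).

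Several sulfotransferases and glucuronosyltransferases were already high in late progenitors. Sult1b1 (chr5:87513339-87538195) had 36.8 CPM in stem cells, 93.9 CPM in early progenitors, 442 and 367 CPM in late-1 and late-2 progenitors and 872 CPM in enterocytes (831 to 914). Its neighbour Sult1d1, which sulfates catecholamines, had 664 CPM in enterocytes (629 to 700.4) and 625 CPM in late-2 progenitors (587 to 664), which overlap. Sult6b2 was largely restricted to enterocytes, at 133 CPM there and 10.8 CPM in late-1 progenitors, with 0 UMIs in stem cells. All 5 Ugt2 genes of the chromosome 5 cluster (chr5:86889767-87337195) were highest in enterocytes, such as Ugt2b34 (390 CPM, against 228 CPM in late-1 progenitors) and Ugt2b5 (161 CPM, against 69.1 CPM in late-2 progenitors). Ugt1a1, Ugt1a6a and Ugt1a7c share 3 exons (chr1:88215044-88215175, chr1:88215795-88215882 and chr1:88216138-88216357, plus strand). Of their 3′ end words, 100%, 100% and 50% also occur in other genes, so the counts of each are uncertain.

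Set directly against stem cells, 51 of the 77 members were over 3-fold higher in enterocytes (66.2%), against 9.63% of all genes, and 9 were over 3-fold lower (11.7%), against 28.9% of all genes. Sult6b2, with 267 enterocyte and 0 stem UMIs, was 159-fold higher when 3 counts were taken as the stem floor. The exact lower limit of its ratio was 129. Aldh1a1 was 292-fold higher (141 to 727; 1141 enterocyte and 7 stem UMIs) and Cyp3a13 223-fold higher (127 to 433; 1497 and 12 UMIs). Cyp3a11, Cyp2b10 and Gsta1 rest on 2, 1 and 3 stem UMIs, and their ratios have wide counting intervals, for Gsta1 a ratio of 1391 (475 to 6748). The 9 lower members were Aldh1b1, with a ratio of 0.301 (0.273 to 0.331), Gstm5, Cyp20a1, Cyp2e1, Aldh7a1, Cyp39a1, Cyp4f15, Fmo2 and Sult1a1. The last 3 rest on 1, 1 and 0 enterocyte UMIs.

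**Figure D2:**
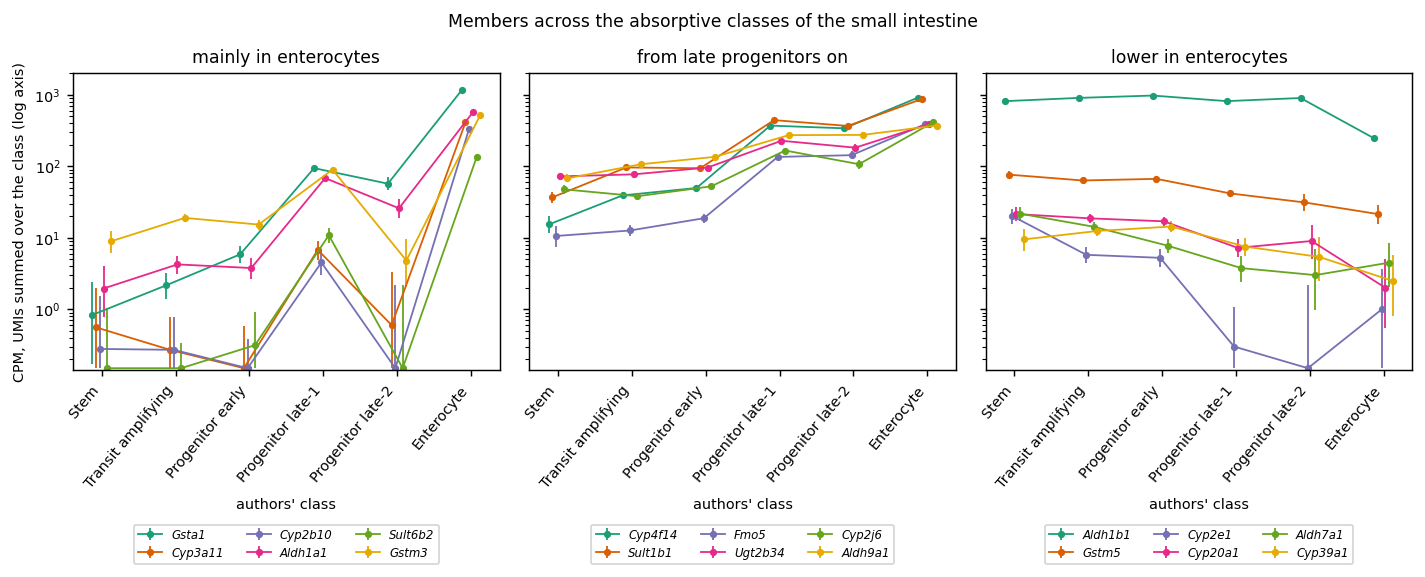
CPM on a log axis of selected members in the authors' classes from stem cells to enterocytes, 1 panel for each pattern, with exact 95% Poisson intervals as bars. The order follows the class names and was not tested. The enterocyte marker list had 8333 CPM in late-1 and 2237 CPM in late-2 progenitors. Values at or under 0.15 CPM are drawn at 0.15. Cyp3a11, Cyp2b10 and Gsta1 are over 100-fold higher in enterocytes than in stem cells, while Aldh1b1 and Cyp2e1 are lower in enterocytes than in stem cells.

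In small intestinal multiplets the summed families were close to the singlets. Together the members had 3650 CPM in multiplets and 3584 CPM in singlets, a ratio of 1.02 (1.01 to 1.03). The sums were 728.5 and 642 CPM for Cyp (ratio 1.13), 580.3 and 476 CPM for Sult (1.22) and 1119 and 1266 CPM for Aldh (0.884). Past 1.5-fold, 3 of 77 members were higher in multiplets, where 1.42% of all 11674 genes were, and 1 was lower, where 3.87% of all genes were. Of the genes with at least 50 UMIs in the singlets, the limit that chose the members, 1.02% were higher and 3.91% lower. In a library sum, more cells of a type and more RNA in each cell cannot be told apart.

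The 3 higher members were P450s with their highest level in enterocytes, and the other 46 members of that kind stayed inside the limit. Of all 1341 genes highest in enterocytes, 2.98% were higher in multiplets. Cyp2c55, which hydroxylates arachidonic acid, had 13.8 CPM in multiplets (698 UMIs) and 7.98 CPM in singlets (381 UMIs), a ratio of 1.73 (1.52 to 1.96). Cyp3a25 had 34.8 CPM in multiplets and 22.3 CPM in singlets, a ratio of 1.56 (1.45 to 1.69). Cyp3a11 had 29.2 and 18.9 CPM, a ratio of 1.55 (1.42 to 1.68). The enterocyte marker list, with 2 of its 7 genes higher and none lower, had 7026 CPM in multiplets and 5123 CPM in singlets, a ratio of 1.37. Values inside the limit were, for example, those of Cyp2d26 (1.40), Aldh1a1 (1.38; 50.7 and 36.9 CPM) and Gsta1 (1.11; 75.4 and 68.1 CPM).

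The 1 lower member was the stem gene Cyp2e1, with 2.07 CPM in multiplets (105 UMIs) and 4.17 CPM in singlets (199 UMIs), a ratio of 0.498 (0.389 to 0.633). The stem marker list, with 4 of 5 genes lower, had a ratio of 0.515. The tuft and enteroendocrine lists were lower in all of their 5 and 6 genes, at 0.343 and 0.622. The Paneth list was higher in all 6 genes (2.09), and no gene of the goblet (1.12) or transit amplifying list (1.08) was past the limit. Beside these, Aldh2 had 123 CPM in multiplets and 159.9 CPM in singlets (0.770) and Gstt1 32.6 and 38.8 CPM (0.839), both inside the limit. The part of the marker shifts in the members' ratios was not tested in the sums. Among members of at least 20 CPM in the higher library, Gstt3 (0.778), Aldh18a1 (0.779), Gstm5 (0.846) and Gstm1 (0.857) followed, and Sult1d1 (1.25; 302 CPM in multiplets and 242 CPM in singlets) and Sult1b1 (1.24) lay on the higher side.

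**Figure D3:**
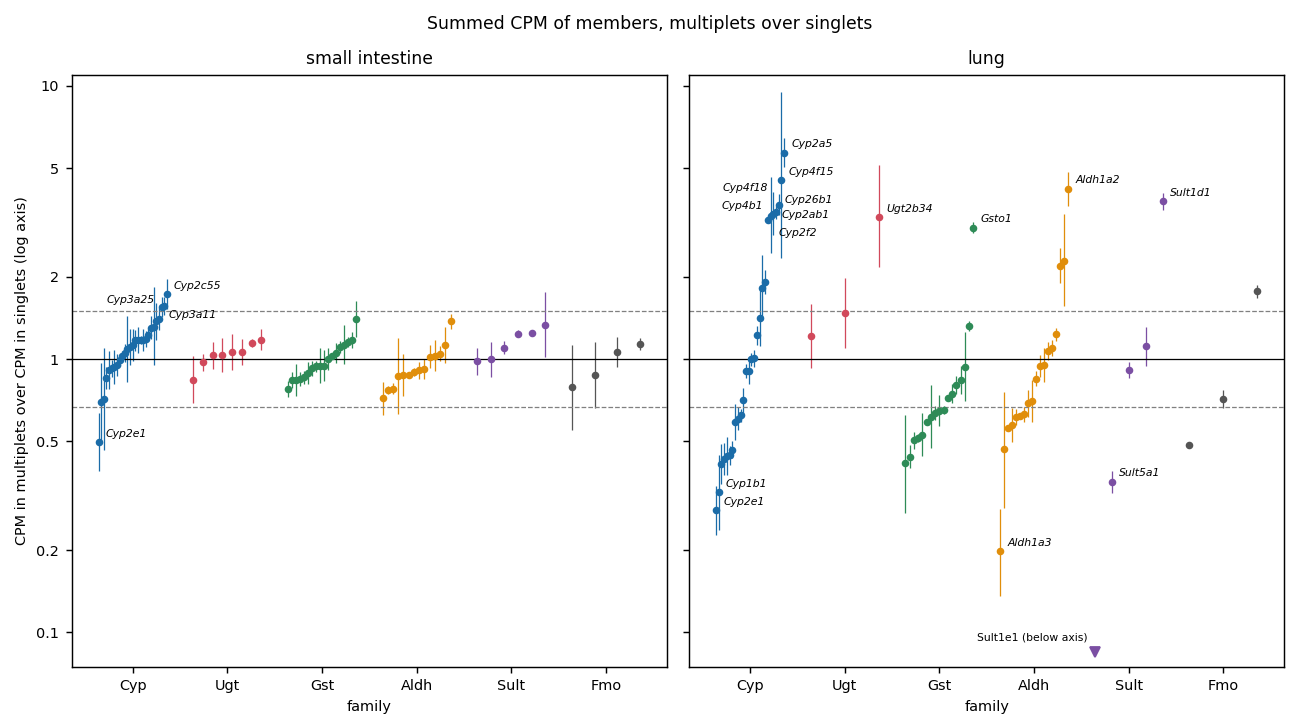
Ratio of multiplet to singlet CPM of members in the small intestine and the lung, with exact 95% counting intervals on a log axis and dashed lines at 1.5-fold either way. Small intestinal ratios lie between 0.498 (Cyp2e1) and 1.73 (Cyp2c55); in the lung Cyp2a5 has a ratio of 5.70, and the triangle marks Sult1e1, below the axis.

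The share of a member's multiplet UMIs that came from multiplets with an enterocyte component ran from low to nearly all. Each multiplet's RNA was fitted as a sum of the singlet classes. An enterocyte weight of at least 0.15 was found in 375 of 3671 small intestinal multiplets (10.2% of barcodes, not of UMIs). For the 47 enterocyte-highest members with at least 100 singlet UMIs, these held between 11.8% (Gsto1) and 96.9% (Cyp2b10) of a gene's multiplet UMIs, with a median of 37.2%, and over 50% for 15 members. The share was 20.3% for Sult1d1, 26.5% for Ugt2b34 and 37.0% for Sult1b1, which were already high in late progenitors. It was 96.7% for Cyp3a11, at 326 CPM, against 1.06 CPM in the other multiplets. For Gsta1 the share was 84.0% (730.3 CPM, against 13.2 CPM elsewhere). The 47 multiplets with tuft weight had 835 CPM of Aldh2, against 115 CPM elsewhere. The 79 with enteroendocrine weight had 429 CPM of Gstt1, against 25.4 CPM elsewhere, and 104 CPM of Cyp4b1, against 5.41 CPM elsewhere. The 640 with stem weight had 10.1 CPM of Cyp2e1, against 0.905 CPM elsewhere. The weights were fitted on genes other than the members.

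In the lung the families had no single home. Of 70 members, 17 were highest in ciliated cells (24.3%, against 21.4% of all 14452 genes), 14 in Fibroblast-1 (20% against 10.6%), 10 in Fibroblast-2 (14.3% against 8.07%) and 10 in Clara cells (14.3% against 0.962%). Endothelium was highest for 6 members (14.7% of all genes), type II pneumocytes for 5 (5.19%), macrophages for 4 (5.09%), alveolar macrophages for 3 (10.6%) and T cells for 1 (4.87%), with none in B cells (7.98%) or NK cells (10.5%). Summed over members, ciliated cells had 9486 CPM, Fibroblast-1 9203 CPM and Clara cells 8356 CPM, although 4 club markers took 538440 CPM of the Clara cell RNA. T cells had 947 CPM. A class led by at least 3-fold for 17 of 70 members (24.3%), against 15.8% of all genes.

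**Figure D4:**
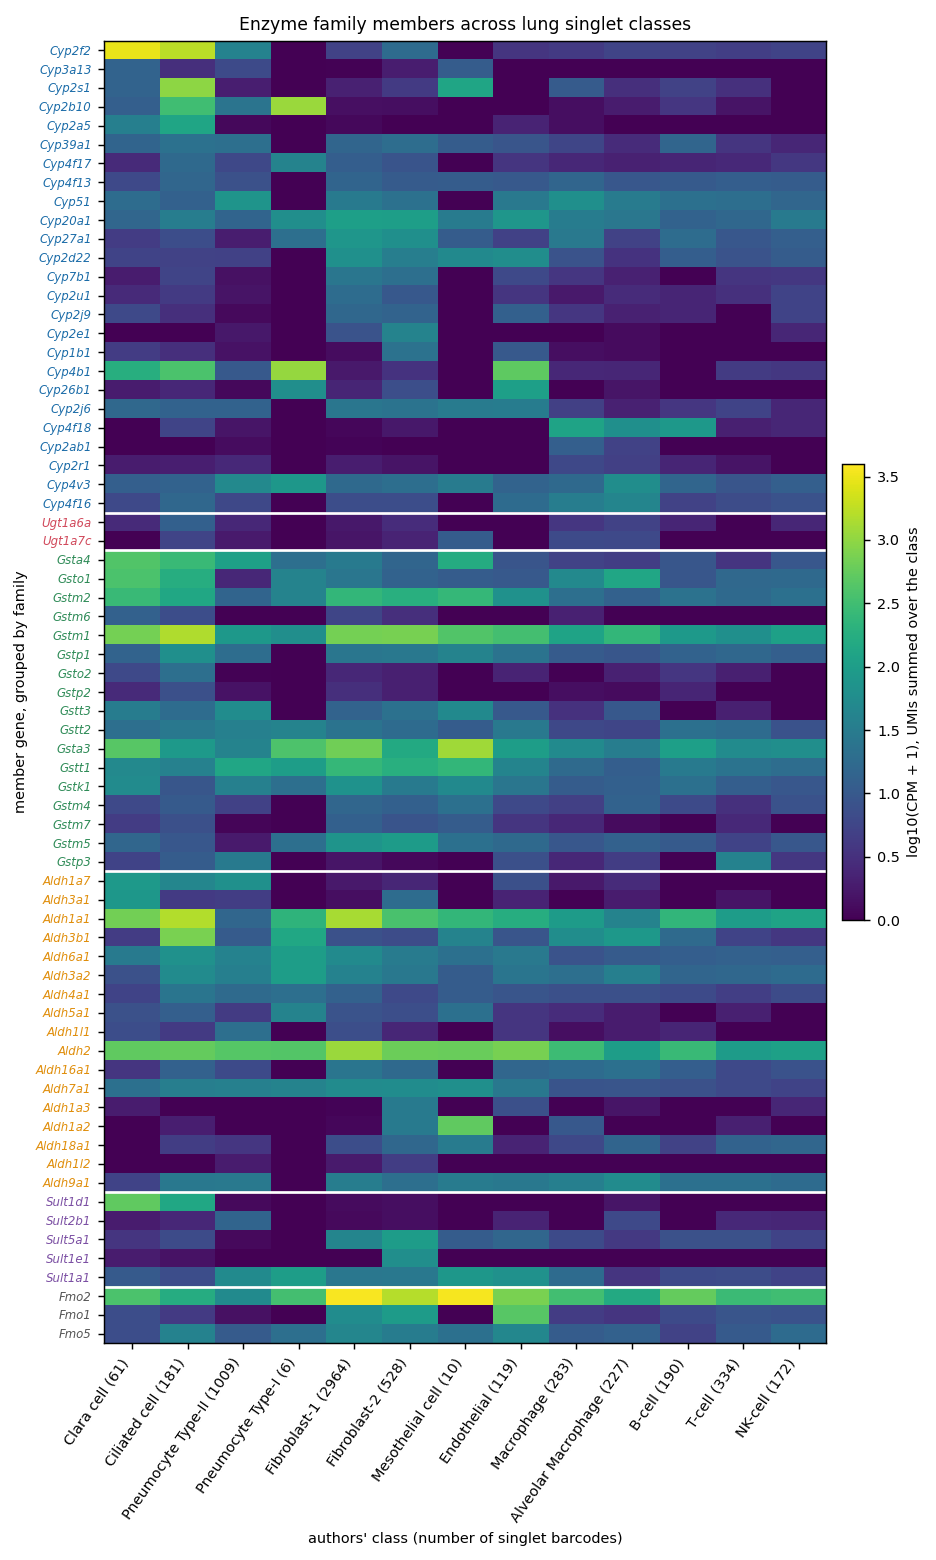
Level of members that reached 50 UMIs in lung singlets, with rows and colours as for the small intestine and the authors' lung classes as columns. Colour is log10(CPM + 1); airway classes, both fibroblast classes and endothelium each hold a block of high genes, and the columns of 6 type I and 10 mesothelial barcodes rest on few cells.

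Several P450s were highest in the airway epithelium, and others, such as Cyp4b1, Cyp2e1 and Cyp1b1, in endothelium or Fibroblast-2. Cyp2f2 (chr7:27119909-27133660), which activates naphthalene in mouse club cells, had 3023 CPM in 61 Clara cells (2924 to 3124) and 1666 CPM in 181 ciliated cells, against 38.2 CPM in type II pneumocytes. Cyp2a5 (chr7:26835305-26843548), a nicotine and coumarin hydroxylase, had 130.1 CPM in ciliated cells (115 to 147) and 35.1 CPM in Clara cells. Some of its 3′ end words also occur in Cyp2a4 or a Cyp2a pseudogene. Sult1d1 (517 CPM, against 137 CPM in ciliated cells) and the corneal and stomach enzyme Aldh3a1 (78.7 CPM, against 17.6 CPM in Fibroblast-2) led in Clara cells. The richest Clara cell barcode for each gene held 21.9% of the Sult1d1 and 13.0% of the Aldh3a1 UMIs of the class. Gsta4 (425 CPM) and Gsto1 (377 CPM) were also highest in Clara cells, with 271 and 174 CPM in ciliated cells.

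Ciliated cells led for 6 members. Cyp2s1 (chr7:25802475-25816913), a P450 of epithelia, had 957 CPM in them (915 to 1002) and 12.8 CPM in Clara cells, a 74.6-fold step (45.1 to 134). Cyp2b10 had 316 CPM and Aldh3b1 739.8 CPM, against 23.4 CPM in type II pneumocytes and 81.5 CPM in alveolar macrophages. The others were Gsto2, with a lead of 3.84-fold (1.62 to 11.1), Gstp2 (3.23; 1.59 to 6.10) and Cyp2a5 (3.71; 2.66 to 5.29). Gsto2 and Gstp2 had only 94 and 76 UMIs in all lung singlets. Of the 3′ end words of Gstp2, 61.5% also occur in Gstp1 or a Gstp pseudogene. In multiplets, 14.4% of Cyp2a5 UMIs lay in those with ciliated weight and 83.5% in those with Clara cell weight. The 6 type I pneumocytes had 1128 CPM of Cyp2b10 (855 to 1462; 57 UMIs) and 1069 CPM of Cyp4b1 (803 to 1395; 54 UMIs), higher than any ranked class. Aldh1a1 was highest in ciliated cells (1547 CPM), with 1355 CPM in Fibroblast-1, and Gstm1 likewise (1467 CPM, against 720.1 CPM in Fibroblast-2).

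Stromal and vascular classes held other members. Fmo2, the main flavin monooxygenase of lung (chr1:162874317-162898726), had 3716 CPM in Fibroblast-1 (3690.3 to 3742), 1582 CPM in Fibroblast-2 and 752 CPM in endothelium. Aldh2 (1139 CPM), Gsta3 (660 CPM) and Gstt1 (245 CPM) were also highest in Fibroblast-1. Fibroblast-2 led for Sult1e1, an oestrogen sulfotransferase (59.6 CPM, 1 UMI in Clara cells), for Cyp2e1 (39.4 CPM, against 7.28 CPM in Fibroblast-1), for the retinaldehyde dehydrogenases Aldh1a3 and Aldh1a2 and for Aldh1l2. Endothelium led for the retinoic acid hydroxylase Cyp26b1 (105 CPM, against 6.24 CPM in Fibroblast-2) and for Fmo1 (456 CPM, against 94.5 CPM), and was highest for Cyp4b1 among ranked classes (502 CPM, against 383 CPM in ciliated cells). The 10 mesothelial cells had 524 CPM of Aldh1a2 (392 to 688; 52 UMIs). Cyp4f18, which inactivates leukotriene B4 in neutrophils, had 122 CPM in the macrophage class, where neutrophil markers were also highest, 81.1 CPM in B cells and 60.4 CPM in alveolar macrophages.

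Fmo2 was also counted in lymphocytes. It had 565 CPM in B cells, 283 CPM in T cells and 316 CPM in NK cells, and was seen in 15.8%, 15.6% and 12.8% of their barcodes at median depths of 3312.5, 5039.5 and 3459 UMIs. In Fibroblast-1 it was seen in 99.9% of barcodes at a median of 6562 UMIs, and in type II pneumocytes in 35.0% at 16009 UMIs. One B cell barcode held 66 Fmo2 UMIs. The ratio of Fmo2 to Gsta3 UMIs was 5.63 in Fibroblast-1, 5.27 in B cells, 5.31 in T cells and 5.39 in NK cells, while in type II pneumocytes, at 51.1 CPM of Fmo2, it was 1.28. It was 6.34 in macrophages, 4.71 in alveolar macrophages and 7.53 in endothelium. The ratio of Fmo2 to Aldh1a1 UMIs separated these classes less. It was 2.74 in Fibroblast-1, 2.45 in B cells, 2.95 in T cells, 2.63 in NK cells and 3.51 in type II pneumocytes. Whether the lymphocyte UMIs came from free RNA or from the cells was not tested, so they are not read as expression by lymphocytes. Nor was this tested for the 752 CPM of Fmo2 in endothelium, a class that also had 15135 CPM of type II pneumocyte markers.

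Lung multiplets differed more from lung singlets than did the small intestinal libraries. Past 1.5-fold, 17 of 73 members were higher in multiplets (23.3%), against 15.9% of all 15098 genes, and 30 were lower (41.1%), against 13.8% of all genes. The members had been chosen by singlet UMIs, which lets in genes low in multiplets and shuts out genes low in singlets. With the same limit of 50 singlet UMIs set for every gene, 14 of 70 members were higher (20%), against 13% of 14451 genes, and 30 were lower (42.9%), against 14.4%. The members together had 3915 CPM in multiplets and 5268 CPM in singlets. Cyp genes had 884 CPM in multiplets and 535 CPM in singlets (ratio 1.65), while Fmo had 907 and 1724 CPM (0.526), Aldh 1035 and 1593 CPM (0.650) and Gst 981.5 and 1329 CPM (0.738). The marker lists moved as well: all 4 club (summed ratio 2.88), 5 endothelial (6.16), 4 mesothelial (10.6), 6 macrophage (7.36), 5 alveolar macrophage (3.04) and 5 neutrophil genes (10.2) were higher in multiplets, and all 6 fibroblast (0.329) and 5 NK cell genes (0.271) were lower. Of the dendritic list (2.59) 3 of 4 genes were higher, of the type I pneumocyte list (1.21) 2 of 5, of the erythroid list (2.15) 2 of 3, and of the smooth muscle or pericyte list (0.762) 3 of 6 were higher and 2 lower. No gene of the type II pneumocyte (0.714), ciliated (0.900), B cell (1.01) or T cell list (1.03) was past the limit. The part of these shifts in the members' ratios was not tested in the sums.

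Of the 10 members highest in Clara cells, 5 were higher in multiplets (50%) and 2 lower (20%), against 42.4% and 7.91% of all 139 genes highest there, and the ciliated and Clara cell gene Cyp2a5 was higher too. Cyp2a5 had 30.9 CPM in multiplets (2046 UMIs) and 5.42 CPM in singlets (307 UMIs), a ratio of 5.70 (5.05 to 6.44), which was 3.24 with each barcode weighted equally. The 10 richest barcodes held 53.8% of its multiplet UMIs and 56.0% of its singlet UMIs. Sult1d1 had 59.3 and 15.7 CPM (ratio 3.78; 3.51 to 4.07) and Cyp2f2 438 and 135 CPM (3.23; 3.15 to 3.32). Gsto1 had 109.8 CPM in multiplets and 36.2 CPM in singlets (3.03; 2.88 to 3.18), and Aldh3a1 10.2 and 4.64 CPM (2.20; 1.90 to 2.54). The 144 of 4729 multiplets (3.05%) with a Clara cell weight of at least 0.15 held 83.5% of the Cyp2a5, 78.4% of the Sult1d1 and 78.0% of the Cyp2f2 UMIs of the multiplets. The 3.05% is a share of barcodes, not of UMIs. As CPM, which allows for depth, Cyp2f2 had 4627 CPM in them, against 104 CPM in the other multiplets. Cyp2a5 had 349 and 5.51 CPM and Sult1d1 630 and 13.8 CPM.

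Of 6 members highest in endothelium 3 were higher in multiplets (15.6% of all 2121 such genes), and of 4 highest in macrophages 3 were (55% of all 735 such genes). Aldh1a2, highest in the 10 mesothelial singlets, had 17.4 CPM in multiplets and 4.15 CPM in singlets (4.20; 3.65 to 4.85), and 108 multiplets with mesothelial weight held 82.6% of its UMIs. Cyp4f18 had 39.8 and 10.9 CPM (3.66; 3.36 to 4.01), with 74.4% of its UMIs in the 1063 multiplets with macrophage weight. The endothelial members Cyp4b1 (96.9 and 28.2 CPM; 3.44), Cyp26b1 (9.37 and 2.75 CPM; 3.40) and Fmo1 (66.0 and 37.3 CPM; 1.77) had 59.2%, 82.9% and 73.1% of their UMIs in the 581 multiplets with endothelial weight. Other higher members were Cyp4f15, Cyp2ab1, Ugt2b34, Aldh1b1, Cyp4f16 and Cyp2r1. Of these, Cyp4f15 (0.194 CPM), Ugt2b34 (0.512 CPM) and Aldh1b1 (0.689 CPM) fell short of the UMI minimum in lung singlets. They had a ratio only because their multiplet UMIs reached that minimum, which favoured a high ratio in advance.

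Of the 14 members highest in Fibroblast-1, 13 were lower in multiplets, where 56.3% of all 1538 such genes were, and of the 10 highest in Fibroblast-2, 8 were, where 50.6% of 1165 were. Median ratios were 0.521 for these members and 0.618 for all genes highest in Fibroblast-1, and 0.412 and 0.665 for Fibroblast-2. Fmo2 had 806 CPM in multiplets (799 to 813) and 1658 CPM in singlets (1647 to 1668), a ratio of 0.486. Aldh2 had 427 and 689 CPM (0.620), Gsta3 179 and 302 CPM (0.591) and Gstt1 80.0 and 156 CPM (0.513). Sult5a1, highest in Fibroblast-2, had 9.57 and 26.9 CPM (0.356; 0.324 to 0.390). Aldh1a1, highest in ciliated cells (1547 CPM, against 1355 CPM in Fibroblast-1), had 358 and 641 CPM (0.559). Of the 17 members highest in ciliated cells, 5 were lower and 1 higher (29.4% and 5.88%), against 8.05% and 2.68% of all 3093 such genes. The 1163 multiplets with Fibroblast-1 weight (24.6%) had 3128 CPM of Fmo2, against 228 CPM in the others. Among Fibroblast-2 members, Cyp2e1 had 1.90 and 6.80 CPM (0.280) and Aldh1a3 0.589 and 2.97 CPM (0.198). Sult1e1 had 1 UMI in multiplets and 327 in singlets, a ratio of 0.00261 (6.6e-05 to 0.0147), and 10 barcodes held 89.6% of the singlet UMIs. Cyp1b1 (0.326, and 0.202 without its 10 richest barcodes), Cyp2d22 (0.445), Cyp27a1, which oxidises sterols (0.466), and Gstm5 (0.504) were lower as well. Gstm2, highest in Clara cells (275 CPM, against 245 CPM in Fibroblast-1), had 84.3 CPM in multiplets and 129 CPM in singlets (0.652). It was lower by total UMIs, but at 0.675 was inside the limit under trimmed mean scaling. Cyp20a1, highest in both fibroblast classes (106 and 103 CPM), had 37.8 CPM in multiplets and 60.7 CPM in singlets (0.623; 0.591 to 0.656). Gstk1, a mitochondrial and peroxisomal transferase highest in Fibroblast-1 (68.3 CPM, against 53.9 CPM in Clara cells), had 27.3 and 43.0 CPM (0.636; 0.598 to 0.676). Gstp1, highest in ciliated cells (60.2 CPM, against 27.0 CPM in Fibroblast-2), had 9.61 and 21.8 CPM (0.440; 0.399 to 0.485). Cyp51, highest in type II pneumocytes (71.5 CPM, against 61.4 CPM in macrophages), had 40.05 and 40.1 CPM, a ratio of 0.998 (0.944 to 1.06), inside the limit.

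The multiplets were then compared with what their fitted class weights predict from the singlets, leaving all members out of the genes that set the weights. Intervals of observed over predicted cover the counting error of the observed UMIs alone. They take the prediction as fixed. In the small intestine none of 68 members with enough UMIs was past 1.5-fold above the prediction, where 0.223% of all 9407 genes were, and none below, where 0.425% were. Observed over predicted ran between 0.754 for Sult6b2 and 1.45 for Cyp4b1, with a median of 1.02 over members and 0.987 over all genes. Cyp3a11 had 1480 UMIs, against 1397 predicted (1.06; 1.01 to 1.12), and Cyp2c55 698, against 561 predicted (1.24; 1.15 to 1.34). The enterocyte took 6.44% of the fitted multiplet UMIs and 4.20% of the singlet UMIs, and the tuft cell 0.495% and 1.48%.

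In the lung 7 of 57 members were above the prediction (12.3%), against 2.06% of all 12116 genes, and 1 was below (1.75%), against 0.85%. Cyp2a5 had 2046 UMIs, against 380 predicted, a ratio of 5.38 (5.15 to 5.62). That prediction drew on 307 singlet UMIs of Cyp2a5, whose counting error the interval leaves out. Cyp2f2 had 28997 UMIs, against 15961 predicted (1.82; 1.80 to 1.84). Sult1d1 (1.66), Gsto1 (1.62), Aldh3a1 (1.55) and Fmo1 (1.52) were also above it. Of the 7 genes, 5 were highest in Clara cells, which took 6.20% of the fitted multiplet UMIs and 2.06% of the singlet UMIs from only 61 singlet barcodes. Members were highest in Clara cells more often than all genes (14.3% against 0.962%). The share above the prediction among all genes highest there was not taken, so the 2.06% does not allow for this. Fmo1 had a ratio of 1.49 when predicted from singlets without called doublets. Gstp1 was below, at 637 UMIs, against 1144 predicted (0.557; 0.514 to 0.602), and 75.9% of its 3′ end words also occur in Gstp2 or a Gstp pseudogene. Cyp4b1 (1.46) and the median member (0.968, against 0.988 over all genes) were inside the limit.

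**Figure D5:**
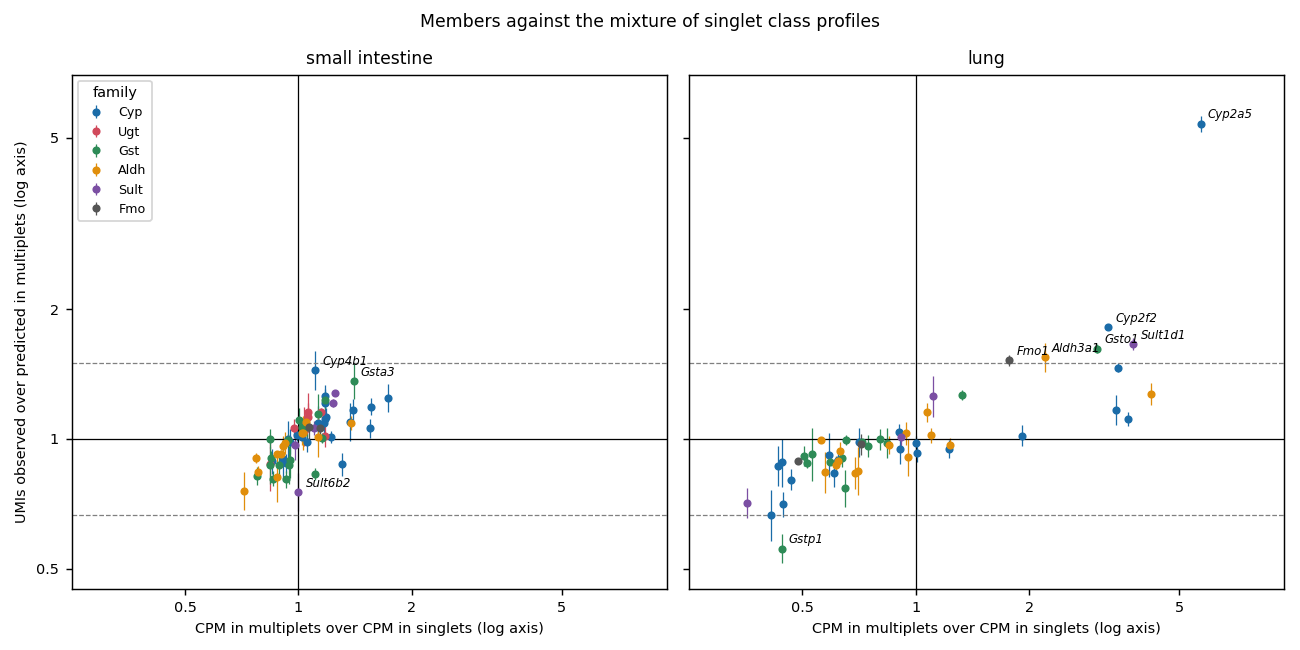
Observed over predicted UMIs of members in multiplets (y) against the ratio of multiplet to singlet CPM (x), both on log axes. Bars are 95% counting intervals of the observed UMIs, with the prediction taken as fixed. Members of the small intestine and the lung with at least 200 observed or predicted UMIs are shown. Dashed lines mark 1.5-fold either way from the prediction. No small intestinal member lies past the limits; in the lung Cyp2a5 (5.38) lies farthest above and Gstp1 (0.557) below.

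Between tissues, 56 members had a ratio in both. Of the 4 small intestinal members past 1.5-fold only Cyp2e1 had a ratio in the lung, and it was lower there too (0.280), so opposite directions could hardly be seen. The singlet levels of many members differed between the tissues by large factors. Sult1b1 had 159.5 CPM in small intestinal singlets and 0.0706 CPM in lung singlets, Gsta1 68.1 and 0.053 CPM, and Aldh1b1 698 and 0.689 CPM. Fmo2 had 1.53 CPM in small intestinal and 1658 CPM in lung singlets, Gsta3 6.01 and 302 CPM, and Aldh1a1 36.9 and 641 CPM. Cyp2b10 and Sult1d1 were prominent in both, in enterocytes and in ciliated or Clara cells. Tissue and library cannot be told apart here.

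Genes that serve these enzymes were given the same comparison. In small intestinal multiplets, past 1.5-fold, 0 of 11 regulators, 0 of 11 electron donors and cofactor enzymes, 0 of 18 other phase I, 0 of 6 other phase II and 0 of 7 retinoid genes were higher or lower, and of 9 transporters 1 (Abcc4) was lower, where 1.42% of all genes were higher and 3.87% lower. Several were highest in enterocytes: Papss2, which makes the sulfate donor (904 CPM, against 71.7 CPM in late-1 progenitors), Ugdh, which makes the glucuronate donor (392 CPM, against 149 CPM), Por, the P450 reductase (112 CPM, against 49.0 CPM), and the receptor CAR gene Nr1i3 (93.8 CPM, against 45.6 CPM). Hnf4g had 314 CPM in enterocytes and 237 CPM in late-1 progenitors, and Hnf4a 149 CPM in early progenitors and 77.9 CPM in enterocytes. In lung multiplets, 2 of 9 transporters (Abcb1a and Slco2a1) were higher and none lower, and of 7 regulators the aryl hydrocarbon receptor Ahr was higher (2.61) and Ppara lower (0.654). Of 11 electron donors and cofactor enzymes Gsr, glutathione reductase, was higher (2.32), and Ugdh (0.447) and Papss2 (0.411) were lower. Among other phase I genes 5 of 20 were higher and 4 lower, among other phase II genes 2 of 7 were higher and none lower, and among retinoid genes 2 of 8 were higher and 2 lower, beside 15.9% of all lung genes higher and 13.8% lower. Lrat, the retinol esterifying enzyme, was lower (0.348) and was highest in Fibroblast-1 at 436 CPM.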

How the data were processed

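UMI counts were used as deposited: each of 4 libraries had 1 table of raw counts (gene symbols by barcodes) and 1 of annotations, with the authors' cell classes for singlets. The submitters' processing notes name Cell Ranger 4.0.0 and mm10; annotation release and class methods are not given in the sources used. The multiplet counts cover 3671 of 5607 listed intestinal and 4729 of 8630 listed lung barcodes, and the singlet counts cover 5279 of 6710 and 6084 of 8410. The tables held 0 columns of other samples. No further barcode filter was set. Scrublet (scanpy 1.11.5) marked 82 small intestinal singlets (1.55%) and 123 lung singlets (2.02%), which were kept.

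UMIs were summed over barcodes and divided by the library or class total to give CPM. Intervals are exact 95% Poisson or binomial (Clopper-Pearson) intervals. Ratios were taken for genes in both tables of a tissue with at least 50 UMIs in either library, and called past 1.5-fold by size, with no test. Shares among genes chosen by singlet UMIs, and by highest class, were added after the values were seen. A leading class was at least 3-fold above the next among classes of at least 20 barcodes. Multiplets were fitted as Poisson mixtures of the singlet classes (300 iterations; 40 genes per class, giving 400 intestinal and 520 lung genes, no member among them), and genes reaching 200 observed or predicted UMIs were compared. The scripts were tested on simulated data.

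Members and lists were chosen with earlier results of these data known. By rule, values were given for the 12 members of highest singlet CPM per tissue, the 6 highest and 6 lowest ratios among members of at least 20 CPM, the 2 most class-restricted members of each family with at least 100 UMIs, and members past the mixture limits; other members were named after their values were seen. A few genes enter the counts and sums but are not reported here by name or in figures. The alternatives were TMM (edgeR 4.0.16) and median ratio (DESeq2 1.42.0) scaling, other UMI minimums and folds, equal weight for each barcode, barcodes thinned to 1000 UMIs, depth-matched singlets, and leaving out the 10 barcodes richest in a gene or the called doublets. Promoters came from RefSeq (GRCm38.p6) and gene positions and transcripts from GENCODE M21. The 3′ ends are the last 400 bases. Over 10% of the 60-base words of this end were shared with other genes for 14 of the 94 members. Among them were Gstm1, Gstm6, Gstt3, Cyp2d22, Cyp2d26 and Cyp2e1, whose counts are thus less certain.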

Additional observations from a re-analysis of the deposited data

How the results depend on the processing

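Of the counts of members, 59 stayed within 1.5 times their value under an alternative and 12 did not; of the values of single members, 376 moved by less than their counting interval and 124 by more. Reversals of direction were looked for only among ratios past 1.5-fold, and none was found. Ratios nearer 1 could change side with the scaling and were not counted. In the small intestine, 3 members were higher in multiplets. The count was 5 with TMM scaling, 0 at a 2-fold limit and 9 with each barcode weighted equally. The 1 lower member became 0 at a minimum of 200 UMIs, 2 with equal weights and 2 without the 10 barcodes richest in each gene. Under a minimum of 50 UMIs, 1 member lay below the small intestinal mixture prediction. In the lung, a 2-fold limit gave 14 lower members in place of 30, 28 members with a leading class in place of 17, 2 above the mixture prediction in place of 7 and 0 below in place of 1, and a minimum of 50 UMIs gave 6 below. The highest class was kept by 74 of 77 small intestinal members with equal weights and 63 when thinned, and by 67 and 58 of 70 lung members. The cause of these moves was not tested beyond what each setting changes. No paired analysis was possible because each group was 1 library. Depth limits members near 50 UMIs, and small classes limit the lung predictions: 6 type I, 10 mesothelial and 61 Clara cell barcodes.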
